A study of Mus musculus with 6 samples.

Results

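Transcripts of 9 genes of glutamate signalling were followed in the embryonic mouse spinal cord: the vesicular glutamate transporter gene Slc17a6, the AMPA receptor genes Gria1, Gria2, Gria3 and Gria4, and the NMDA receptor genes Grin1, Grin2b, Grin2d and Grin3a. They were taken by symbol from the 55433 genes of the deposited count files, and all 9 passed the filter on low counts that left 17711 genes for testing. RNA had been sequenced from whole spinal cords of C57BL/6J embryos at E13.5, the embryonic day given by the labels. The study asked what the transcription factor NFIA does in developing motor neurons. The 3 libraries labelled control came from embryos of genotype NFIA-ff, and the 3 labelled NFIAcKO from embryos of genotype NFIA-ff with Nestin-cre. Both groups therefore carried the floxed Nfia allele, and only the second carried a cre transgene, which the Nestin promoter drives in neural progenitors. The cre transgene and the deletion it is meant to make were not separated by this design. The labels do not say whether the embryos came from separate litters, and with 3 libraries a group the p values measure only the spread between these libraries.

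Glutamate is the main excitatory transmitter of the spinal cord. Slc17a6 encodes VGLUT2, which loads glutamate into synaptic vesicles and marks most excitatory interneurons of the cord. AMPA receptors, assembled from GluA subunits encoded by the Gria genes, carry fast excitatory current, and NMDA receptors combine the obligatory GluN1 subunit (Grin1) with GluN2 or GluN3 subunits that set their gating and block by magnesium. GluN2B (Grin2b) and GluN2D (Grin2d) are the GluN2 subunits of embryonic tissue, GluN2A (Grin2a) rises after birth, and GluN3A (Grin3a) is a juvenile subunit that lowers calcium entry.

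The targeted gene itself did not fall in the libraries whose label names the deletion. Nfia had 2641, 3110 and 3683 counts in control replicates 1, 2 and 3, and 5144, 5016 and 5636 counts in NFIAcKO replicates 1, 2 and 3. In CPM (counts scaled to library size, here with TMM factors, the level scale used below), Nfia stood at 66.1 ± 11.3 (SD, n = 3) under the control label and 111 ± 7.02 under the NFIAcKO label. Its log2 fold change was 0.75 (SE 0.11, edgeR quasi-likelihood adjusted p = 0.0031), with no overlap between the groups. The counts cover whole genes, and whether reads fell in the deleted exons was not analysed here. The direction of every comparison below is therefore that of the labels alone, libraries labelled NFIAcKO over libraries labelled control. Counts assigned to genes came to between 43393053 and 51465763 per library, at which a count of 0 allows up to 3 counts, or 0.0583 to 0.0691 CPM, for counting error only. Xist, the transcript of the inactive X chromosome, was high only in both replicates 2, at 335 CPM (control) and 201 CPM (NFIAcKO), with 0.0635 CPM or less elsewhere, so each group held 1 library from a female embryo. The libraries also differed in how counts depended on gene length: each doubling of the summed exon length changed log2 CPM by -0.0643, -0.117 and -0.0186 in the control libraries and by 0.0672, 0.0394 and 0.093 in the NFIAcKO libraries, relative to the mean of all 6. Results below are as counted unless they are said to be with the trend removed, which means after removal of each library's trend with exonic length and GC content.

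Of the 9 genes, 2 rose in the libraries labelled NFIAcKO, Grin2b and Gria3, none fell, and 7 did not pass an adjusted p of 0.05 over all tested genes. Among all tested genes 1392, or 7.86%, were called higher and 1076, or 6.08%, lower (1057 and 1434 under upper quartile scaling). In RNA of whole cord, fewer cells of a type and less RNA per cell cannot be told apart. At an unadjusted p under 0.05 there were 5 of the 9, the other 3 being Grin1, Grin2d and Grin3a, all with positive fold changes. The median log2 fold change of the 9 was 0.24, against -0.01 over all tested genes. In 3 of the 9 (Gria3, Grin2b and Grin2d) every NFIAcKO library lay above every control library, and in none was the order the opposite. Over all tested genes the same separation was seen upward in 17.3% and downward in 16.1%. With the length and GC trend removed, none of the 9 was called in either direction, against 3.83% of all genes called higher and 3.88% lower, and their median was -0.04 against 0.01. Only Gria3 and Grin2b then kept an unadjusted p under 0.05. DESeq2 called 4 of the 9 higher, adding Grin2d and Grin3a. The number called higher was 0 without control replicate 1, control replicate 2 or NFIAcKO replicate 1, 1 without NFIAcKO replicate 3 and 2 without either of the remaining libraries.

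**Figure D1:**
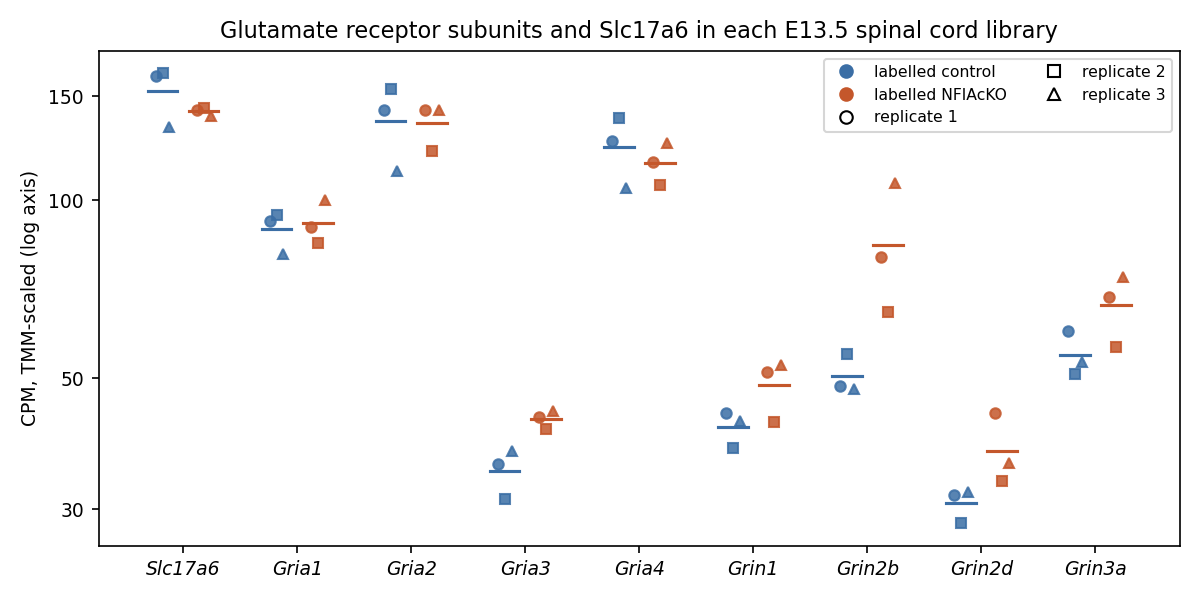
Level of each gene in every library, in CPM on TMM-scaled library sizes on a log axis; blue marks are libraries labelled control, orange marks those labelled NFIAcKO, the marker shape is the replicate number and the bar is the group mean (n = 3). The groups do not overlap for Gria3, Grin2b and Grin2d, and they overlap for the other 6 genes.

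Slc17a6, on the plus strand of chromosome 7 (GRCm38, chr7:51622006-51671119, ENSMUSG00000030500.6), did not pass the test. Its level was 162, 164 and 133 CPM in control replicates 1 to 3 and 142, 143 and 139 CPM in NFIAcKO replicates 1 to 3. The NFIAcKO libraries lay close together and inside the wider range of the control libraries, whose low value was replicate 3. The means were 153 ± 17 and 141 ± 2.12 CPM (SD, n = 3), a log2 fold change of -0.11 with SE 0.09 (adjusted p = 0.42), and the 95% interval of the fold ran from 0.813 to 1.05. Removing the length and GC trend left it at -0.08 (adjusted p = 0.55). Without control replicate 3 it was called lower, at -0.21 (adjusted p = 0.043). Set against Slc32a1, which encodes the vesicular transporter of GABA and glycine in inhibitory neurons, Slc17a6 made up 61.3 ± 3.75% of the pair in control and 59.6 ± 0.935% in NFIAcKO libraries, in counts per kilobase of exon (exact two-sided permutation p = 0.6). Slc32a1 itself stood at 49.7 ± 3.26 and 49.8 ± 2.63 CPM. The other vesicular glutamate transporter genes were at trace levels in both groups: Slc17a7, the main transporter gene of the cortex, at 0.384 ± 0.0666 and 0.289 ± 0.0349 CPM, and Slc17a8 at 1.11 ± 0.119 and 1.30 ± 0.24 CPM.

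Because NFIA is a DNA-binding factor, the upstream windows of the genes were searched for the core motif of the NFI family. RefSeq windows on GRCm38.p6 were held for 5 of the 9 genes (Gria2, Gria4, Grin1, Grin2d and Slc17a6), and the 250 bases before each annotated start were read, 6 windows in all because Slc17a6 had a pair. The core motif TTGGC, on either strand, was present in 3 copies in the upstream Slc17a6 window (chr7:51621580-51621829, plus strand) and in 1 copy in the Grin1 window (chr2:25319188-25319437, minus strand), and in none of the other 4 windows. These are the windows that held a match, written 5′ to 3′ along the gene with the core motifs in capitals.
Slc17a6: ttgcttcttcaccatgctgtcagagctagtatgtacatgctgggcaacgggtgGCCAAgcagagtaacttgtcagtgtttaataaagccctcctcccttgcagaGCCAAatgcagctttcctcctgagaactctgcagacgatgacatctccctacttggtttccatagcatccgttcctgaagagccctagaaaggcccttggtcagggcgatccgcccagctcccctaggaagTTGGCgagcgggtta
Grin1: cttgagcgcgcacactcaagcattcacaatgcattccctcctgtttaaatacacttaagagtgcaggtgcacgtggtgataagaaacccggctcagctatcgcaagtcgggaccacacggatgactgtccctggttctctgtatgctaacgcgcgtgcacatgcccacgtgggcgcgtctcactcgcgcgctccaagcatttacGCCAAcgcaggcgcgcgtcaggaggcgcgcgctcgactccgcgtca
At least 1 core motif was found in 13637 of 32851 windows of this length, or 41.5%. The full palindrome, TTGGC and GCCAA with 5 bases of any kind between them, was in 12 windows (0.0365%) and in none of these 6. No binding was measured in the files used here, and neither Slc17a6 nor Grin1 passed the test of expression.

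Of the AMPA receptor genes, Gria1, Gria2 and Gria4 did not pass the test and had overlapping groups, and Gria3 rose. Gria1 (chr11:57011387-57330244, plus strand) encodes GluA1, a subunit known for its activity-dependent trafficking. It stood at 92.1, 94.5 and 81.2 CPM in the control libraries and 90.0, 84.7 and 99.9 CPM in the NFIAcKO libraries, with interleaved groups. The log2 fold change was 0.04 (SE 0.09, adjusted p = 0.82), with a 95% interval of the fold from 0.901 to 1.17. Gria2 (chr3:80681450-80802835, minus strand) encodes GluA2, whose edited form keeps AMPA receptors from passing calcium. Its levels of 142, 154 and 112 CPM and of 142, 121 and 142 CPM also interleaved, and its log2 fold change was -0.01 (SE 0.11, adjusted p = 0.97; interval of the fold 0.847 to 1.17). Gria4 (chr9:4417896-4796234, minus strand) encodes GluA4, the fast-gating subunit prominent in early development. It was at 126, 138 and 105 CPM in control and 116, 106 and 125 CPM in NFIAcKO libraries, a log2 fold change of -0.09 with SE 0.10 (adjusted p = 0.59; interval of the fold 0.81 to 1.09). For these 3 genes control replicate 2 was the highest and control replicate 3 the lowest control library. After removal of the trend, Gria1 was -0.04, Gria2 -0.15 and Gria4 -0.12 (adjusted p = 0.81, 0.30 and 0.47). The signs of the Gria1 and Gria2 fold changes depended on the setting and carry no direction.

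Gria3 (chrX:41400854-41678601, plus strand), which encodes GluA3, was the AMPA receptor gene that rose. It had 1572, 1641 and 1750 counts in the control libraries and 2078, 1897 and 2077 counts in the NFIAcKO libraries. In CPM these were 35.8, 31.2 and 37.6 against 42.9, 41.0 and 44.0. All NFIAcKO libraries lay above all control libraries, by the narrow gap between 37.6 and 41.0 CPM. The means of 34.9 ± 3.34 and 42.6 ± 1.53 CPM gave a 1.22-fold difference (interval 1.07 to 1.40) and a log2 fold change of 0.29 with SE 0.09 (adjusted p = 0.047). With the trend removed it was 0.22 (adjusted p = 0.13), and the groups still did not overlap. The call held in 1 of the 6 fits that left out a library, the one without control replicate 3 (adjusted p = 0.0064), and the other 5 gave 0.089 to 0.20. Upper quartile scaling gave an adjusted p of 0.08. Gria3 lies on the X chromosome, and replicate 2, the library with Xist, was the lowest of its group on both sides. The same order was seen for Grin1, Grin2d and Grin3a, which do not lie on the X chromosome, so it was not particular to Gria3.

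The receptor genes are families of related sequence, and the stretches they share were measured. Over the 36 pairs of the 9 genes, the longest identical run in their longest annotated coding sequences (GENCODE M21, GRCm38) was 41 bases, between Gria2 (exon 14, chr3:80691348-80691388, minus strand) and Gria4 (exon 15, chr9:4432801-4432841, minus strand). The next was 29 bases between Gria1 (exon 15, chr11:57317684-57317712) and Gria3 (exon 15, chrX:41672237-41672265), both on the plus strand. A read lying wholly within such a run would match both genes. How such reads were counted was not examined, and untranslated sequence was not searched. The runs are shown in capitals, with 12 coding bases on either side in lower case.
Gria2: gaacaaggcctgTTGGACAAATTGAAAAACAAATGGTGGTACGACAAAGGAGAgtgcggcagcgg
Gria4: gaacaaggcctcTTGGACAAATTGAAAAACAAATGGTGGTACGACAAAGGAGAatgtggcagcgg
Gria1: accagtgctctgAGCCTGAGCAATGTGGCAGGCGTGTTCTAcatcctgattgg
Gria3: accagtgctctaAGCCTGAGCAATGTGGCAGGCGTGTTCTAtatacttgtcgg
All other pairs shared at most 23 bases, and the longest run between NMDA receptor genes was 18 bases, between Grin2b and Grin2d. The read length is not given in the sources used here.

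All 4 NMDA receptor genes had higher means in the libraries labelled NFIAcKO, and Grin2b alone passed the test. Grin2b (chr6:135713233-136173511, minus strand) had 2126, 2896 and 2230 counts in the control libraries and 3875, 2989 and 5068 counts in the NFIAcKO libraries. On the CPM scale these were 48.4, 55.0 and 48.0 against 80.1, 64.6 and 107. The groups did not overlap, and the NFIAcKO libraries were spread widely, with replicate 3 the highest and replicate 2 the lowest. The means were 50.5 ± 3.94 and 84.0 ± 21.6 CPM, a 1.66-fold difference (interval 1.29 to 2.14) and a log2 fold change of 0.73 with SE 0.16 (adjusted p = 0.02). With the length and GC trend removed the levels were 56.0, 63.9 and 52.6 against 72.1, 60.4 and 86.7 CPM, which overlapped, and the log2 fold change was 0.35 (adjusted p = 0.12). The call held in 2 of 6 fits with a library left out, those without NFIAcKO replicate 2 (adjusted p = 0.008) and without NFIAcKO replicate 3 (log2 fold change 0.51, adjusted p = 0.043), and the other 4 gave adjusted p of 0.06 to 0.19.

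Grin1, Grin2d and Grin3a differed by less than Grin2b and did not pass. Grin1 (chr2:25291181-25319187, minus strand), the subunit gene shared by all NMDA receptors, was at 43.7, 38.0 and 42.3 CPM in control and 51.2, 42.2 and 52.6 CPM in NFIAcKO libraries. Only NFIAcKO replicate 2 fell within the control range, and the log2 fold change was 0.24 (SE 0.10, adjusted p = 0.12), or -0.05 (adjusted p = 0.78) with the trend removed. Grin2d (chr7:45831883-45878378, minus strand) was at 31.7, 28.4 and 32.1 CPM against 43.6, 33.5 and 35.9 CPM. These groups did not overlap, NFIAcKO replicate 1 stood apart from the other two of its group, and the log2 fold change of 0.30 (SE 0.11) had an adjusted p of 0.075. It was called by DESeq2 (adjusted p = 0.044) and without control replicate 3 (adjusted p = 0.03), and it was 0.07 (adjusted p = 0.70) with the trend removed. Grin3a (chr4:49661611-49845744, minus strand) was at 60.1, 50.7 and 53.2 CPM against 68.7, 56.5 and 74.1 CPM, which overlapped through NFIAcKO replicate 2. Its log2 fold change was 0.28 (SE 0.10, adjusted p = 0.078), it was called by DESeq2 (adjusted p = 0.049) and without NFIAcKO replicate 2 (adjusted p = 0.045), and with the trend removed it was 0.03 (adjusted p = 0.89). In each of the 4 NMDA receptor genes NFIAcKO replicate 2 was the lowest library of its group. Control replicate 2 was the lowest of its group in Grin1, Grin2d and Grin3a, and the highest in Grin2b. Annotated antisense transcripts overlap 1307 bp of the Grin1 exons (Grin1os, 9 to 21 counts a library) and 643 bp of the Grin2d exons (Gm45441, 11 to 23 counts), and the strand setting of the counting is not given in the sources used here.

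**Figure D2:**
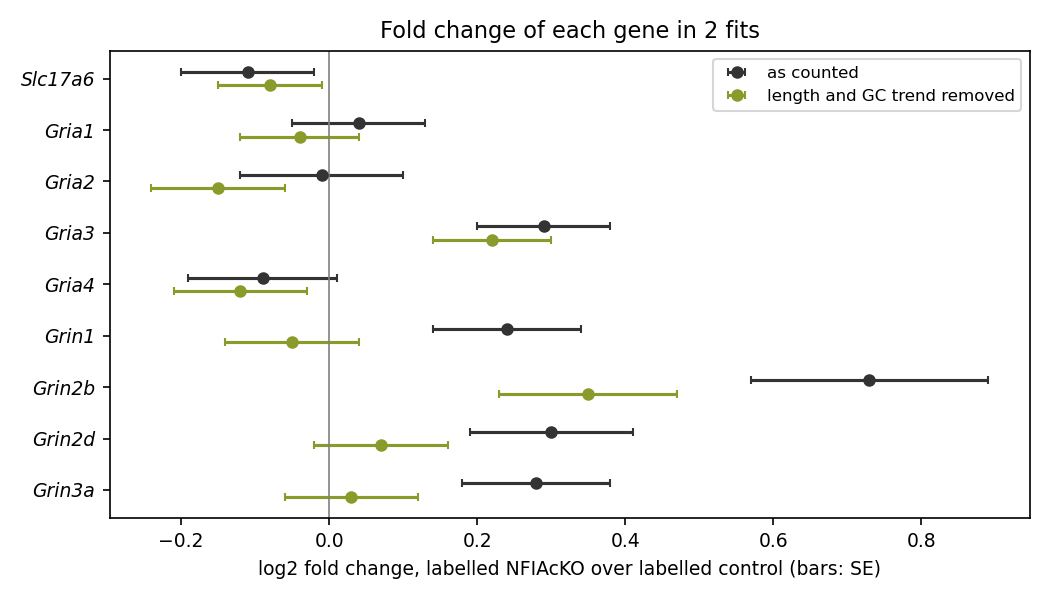
Log2 fold change of each gene, libraries labelled NFIAcKO over libraries labelled control, with bars of 1 standard error, as counted (black) and with the length and GC trend of each library removed (green). Grin1, Grin2d and Grin3a sit at 0.24 to 0.30 as counted and at -0.05 to 0.07 with the trend removed, while Gria3 moves from 0.29 to 0.22 and Grin2b from 0.73 to 0.35.

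The length trend bears on this set because all 9 genes are longer than the median tested gene. Their median exonic length was 9700 bp against 3975 bp. When tested genes were ordered by exonic length into 8 equal classes, the share called higher went from 0.365% in the shortest class to 32.8% (719 of 2189) in the longest, and the median log2 fold change from -0.23 to 0.21. The longest class, from 8654 bp upward, held 5 of the 9 (Gria2, Gria3, Grin1, Grin2b and Grin3a), of which Gria3 and Grin2b were called. The class of 6325 to 8650 bp, with 14.4% called higher, held Grin2d, and the class of 4995 to 6324 bp, with 8.27% called higher, held Slc17a6, Gria1 and Gria4, none of them called. Grin2b was the longest of the 9 at 24842 bp of exon. Its 0.73 lay above the median of 0.21 of its class, which reached up to 123179 bp. With the length and GC trend removed, Grin2b was at 0.35. Gria2, at 15548 bp, lay below that median with -0.01. Length and group moved together across these libraries, so a group difference in the output of long genes and a technical length trend cannot be told apart here. The trend removal also took out GC content, and the parts of length and GC content in it were not separated. GC content of the longest transcript ran from 36.8% in Gria2 to 65.0% in Grin2d, with Gria3 at 39.8% and Grin1 at 59.4%.

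**Figure D3:**
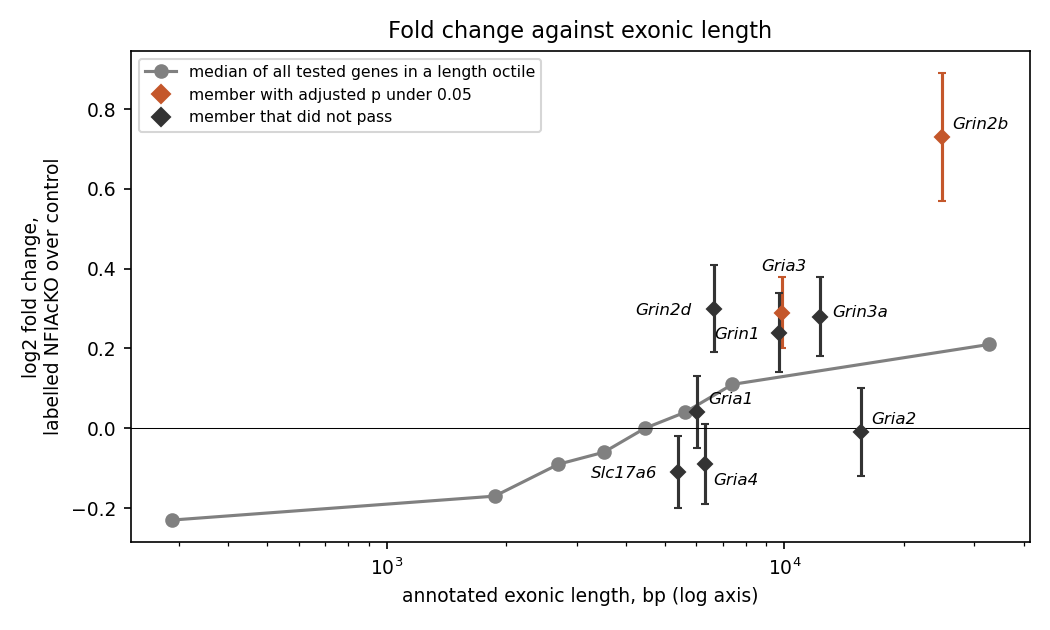
Log2 fold change (libraries labelled NFIAcKO over control) against summed exonic length in base pairs on a log axis; grey circles are the medians of all tested genes in 8 length classes, diamonds are the 9 genes with bars of 1 standard error, and orange marks the called pair. The grey line climbs from -0.23 to 0.21, and Grin2b at 0.73 stands above it while Gria2, Gria4 and Slc17a6 lie below it.

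Levels were compared between genes per kilobase of annotated exon. In the control libraries Slc17a6 was highest at 28.3 ± 3.15 CPM per kb (SD, n = 3), followed by Gria4 at 19.5 ± 2.71, Gria1 at 14.8 ± 1.17 and Gria2 at 8.75 ± 1.38. No ranges of these neighbours overlapped. Grin2d at 4.62 ± 0.307, Grin3a at 4.45 ± 0.397 and Grin1 at 4.26 ± 0.307 CPM per kb had overlapping ranges and no resolved order. Gria3 at 3.54 ± 0.339 and Grin2b at 2.03 ± 0.159 CPM per kb were the lowest. The place of Grin2b rests on its 24842 bp of exon, against 4446 bp in its longest annotated coding sequence. Before division, control libraries had Grin2b at 50.5 CPM, above Grin1 at 41.3, Gria3 at 34.9 and Grin2d at 30.7 CPM. In the NFIAcKO libraries the order of the first 4 genes was the same, Slc17a6 at 26.2 ± 0.393, Gria4 at 18.3 ± 1.46, Gria1 at 15.2 ± 1.28 and Gria2 at 8.70 ± 0.767 CPM per kb. There Grin2b, at 3.38 ± 0.871 and with libraries from 2.6 to 4.32, overlapped Gria3, with libraries from 4.16 to 4.46 CPM per kb. Dividing by the longest transcript instead kept Slc17a6, Gria4, Gria1 and Gria2 first in the control libraries (37.0, 22.6, 16.1 and 13.1 CPM per kb) and Grin2b last (2.10), but set Grin1 next after Gria2 at 9.66. On that scale the control ranges of Gria1 (14.6 to 17.0) and Gria2 (10.8 to 14.8) overlapped. Transcripts of the other GluN2 genes were scarce: Grin2a stood at 0.313 ± 0.0665 and Grin2c at 0.322 ± 0.0359 CPM per kb of exon in control libraries.

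The makeup of each receptor class within a library does not depend on the scaling between libraries. Of 10 shares tested by exact two-sided permutation over the 6 libraries, whose smallest possible p is 0.1, none passed, and every adjusted p was at least 0.33. Gria4 made up 41.6, 43.3 and 40.4% of the summed Gria1 to Gria4 level per kb in control libraries and 39.3, 39.3 and 39.6% in NFIAcKO libraries. Its groups did not overlap (41.8 ± 1.48 against 39.4 ± 0.17%, exact permutation p = 0.1), though they did with the trend removed. Gria1 took 31.8 ± 0.924 and 32.6 ± 0.66%, and Gria2 18.7 ± 1.01 and 18.7 ± 0.732%. Gria3 took 7.57, 6.24 and 9.30% against 9.31, 9.70 and 8.94%, and control replicate 3 lay within the NFIAcKO range, as counted and with the trend removed. Gria3, the AMPA receptor gene called higher, was the smallest share in every library.

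Among the GluN2 genes Grin2d and Grin2b together made up nearly the whole. Grin2d took 63.4 ± 3.67% of the summed Grin2a to Grin2d level per kb in control and 57.5 ± 5.67% in NFIAcKO libraries (exact permutation p = 0.3). The larger share of Grin2d rests on the division by exonic length. In CPM Grin2b was above Grin2d, at 50.5 ± 3.94 against 30.7 ± 2.05 in control and 84.0 ± 21.6 against 37.7 ± 5.27 in NFIAcKO libraries. Grin2b took 26.8, 30.7 and 26.2% in control and 30.3, 30.9 and 40.8% in NFIAcKO libraries. The overlap was between control replicate 2 and NFIAcKO replicate 1, and the mean difference of 6.09 percentage points (exact permutation p = 0.2) was 2.68 without NFIAcKO replicate 3. The Grin2b shares with the trend removed were 28.2, 30.1 and 28.3% against 30.4, 31.5 and 36.3%, which did not overlap and differed by 3.87 percentage points in the mean. Grin2a held 4.31 ± 0.953 and 4.59 ± 0.205%, and Grin2c 4.42 ± 0.486 and 3.95 ± 0.383%. Grin1 relative to the summed GluN2 genes was 0.621, 0.543 and 0.590 in control and 0.495, 0.517 and 0.512 in NFIAcKO libraries. Every NFIAcKO library was below every control library (0.585 ± 0.0391 against 0.508 ± 0.0115, exact permutation p = 0.1, adjusted p = 0.33), also with the longest transcript as the length and with the trend removed. After these values were seen, the 4 NMDA receptor genes were summed as a percentage of the 8 AMPA and NMDA receptor genes, which gave 25.2, 22.3 and 27.3% in control and 30.6, 27.9 and 29.8% in NFIAcKO libraries and was not tested. With the trend removed these were 26.6, 24.9 and 27.1% against 28.6, 26.5 and 28.8%, with overlapping groups. Each NFIAcKO library was above the control library of its number. That order was not tested either, and the labels do not say that the numbers pair the libraries.

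**Figure D4:**
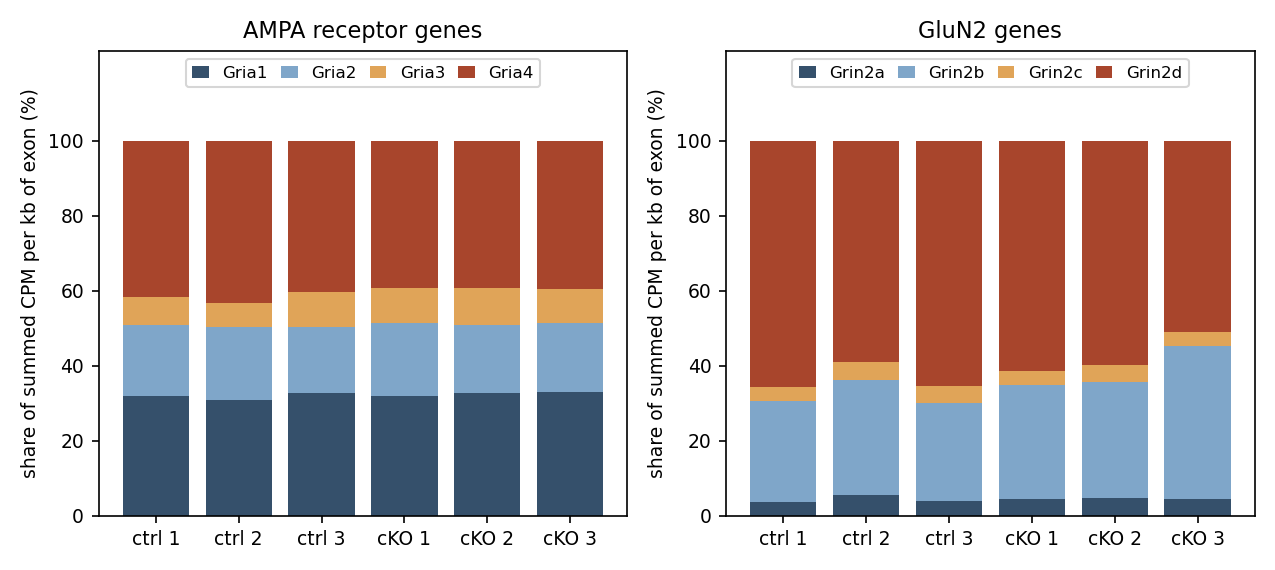
Makeup of the AMPA receptor genes (left) and the GluN2 genes (right) in each library, as a percentage of the summed CPM per kb of exon; ctrl and cKO mark libraries labelled control and NFIAcKO with their replicate number. Gria4 takes 39.3 to 43.3% of the left bars, and Grin2b takes 40.8% of the right bar of NFIAcKO replicate 3 against 26.2 to 30.9% in the other 5.

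Other ionotropic glutamate receptor genes gave 1 call each among the remaining NMDA subunits and among the kainate and delta receptors. Of all tested genes, 7.86% were called higher and 6.08% lower. Both called genes lay in the longest length class, where 32.8% of all genes were called higher. Of Grin2a, Grin2c and Grin3b, Grin2a rose from 5.62 ± 1.19 to 8.11 ± 0.763 CPM (log2 fold change 0.53, SE 0.16, adjusted p = 0.04). That call was lost with the replicate number as a block (adjusted p = 0.053) and with the trend removed (0.24, adjusted p = 0.37). Of 7 kainate and delta receptor genes, Grik3, which encodes the GluK3 kainate subunit, rose from 128 ± 13.6 to 168 ± 6.85 CPM (log2 fold change 0.40 with SE 0.09, adjusted p = 0.012; trend removed 0.19, adjusted p = 0.077), and 6 did not pass. The median of the 7 was 0.21. Of 8 metabotropic receptor genes 7 were tested, and Grm4, which encodes a presynaptic receptor, rose from 15.4 ± 1.52 to 20.7 ± 2.42 CPM (log2 fold change 0.42 with SE 0.12, adjusted p = 0.029; trend removed 0.24, adjusted p = 0.15). The median of these 7 was -0.06. None of these 3 calls held in more than 2 of the 6 fits with a library left out. With the trend removed no gene of these lists was called, against 3.83% of all tested genes called higher and 3.88% lower.

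Genes for proteins that accompany AMPA and kainate receptors gave 4 calls. Of 20 auxiliary protein genes 18 were tested, 3 rose and 1 fell, and the median log2 fold change was 0.13. Over all tested genes 7.86% were called higher and 6.08% lower. Shisa7, whose product associates with AMPA and GABA-A receptors, was at 96.3, 84.4 and 102 CPM in control and 134, 126 and 140 CPM in NFIAcKO libraries. The groups were well apart (0.50, SE 0.09, adjusted p = 0.0053), and the call held with the trend removed (0.34, adjusted p = 0.019) and in all 6 fits with a library left out. Cacng2, which encodes stargazin, the prototype of the proteins that carry AMPA receptors to the surface, rose from 81.5 ± 9.82 to 108 ± 7.08 CPM (log2 fold change 0.40 with SE 0.09, adjusted p = 0.015). Its relative Cacng3 rose from 15.8 ± 1.79 to 20.7 ± 1.54 CPM (log2 fold change 0.39 with SE 0.11, adjusted p = 0.035). Both held with the trend removed (adjusted p = 0.023 and 0.028), though in 2 and 1 of the 6 fits with a library left out. Olfm3, which encodes a secreted olfactomedin protein, fell from 43.8 ± 6.66 to 34.4 ± 2.53 CPM (log2 fold change -0.35 with SE 0.11, adjusted p = 0.046), a call lost with the replicate number as a block (adjusted p = 0.054) and with the trend removed (-0.21, adjusted p = 0.12), and held in 1 of 6 fits with a library left out. Cacng7 and Cacng8 were listed at 0 counts in all 6 libraries.

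Several genes of the postsynaptic scaffold rose in the libraries labelled NFIAcKO. Of 28 genes for scaffold and trafficking proteins 9 rose, none fell and 19 did not pass, with a median of 0.22. Over all tested genes 7.86% were called higher and 6.08% lower. In the longest length class, which held Shank1, Shank2 and Dlgap1, 32.8% of all genes were called higher. With the trend removed 4 of the 28 were called higher and 1 lower, against 3.83% and 3.88% of all tested genes. With the replicate block as well these were 2 and 1. Shank2, which encodes a scaffold at the core of the excitatory postsynaptic density, was at 69.7, 61.3 and 65.6 CPM in control and 93.7, 91.0 and 99.1 CPM in NFIAcKO libraries. The 3 NFIAcKO libraries were close together and far above the control libraries (0.53, SE 0.08, adjusted p = 0.0042), and the call held in all 6 fits with a library left out. Its value with the trend removed was 0.27 and called (adjusted p = 0.04), but not with the replicate block as well (adjusted p = 0.054). Camk2a, a kinase gene of synaptic plasticity, rose from 27.4 ± 1.91 to 37.1 ± 0.69 CPM (log2 fold change 0.44 with SE 0.09, adjusted p = 0.0088; trend removed 0.29, adjusted p = 0.034). Dlgap1, whose product links PSD-95 to Shank proteins, rose from 35.2 ± 0.838 to 49.2 ± 3.98 CPM (log2 fold change 0.48 with SE 0.09, adjusted p = 0.0059), and Shank1 from 232 ± 19.1 to 324 ± 25.2 CPM (log2 fold change 0.48 with SE 0.09, adjusted p = 0.0066). Neither of that pair passed with the trend removed (0.14 and 0.16, adjusted p = 0.24 and 0.19). With a library left out, Dlgap1 was called in all 6 fits, Shank1 in 5 and Camk2a in 4.

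Genes of glutamate uptake and metabolism gave calls in both directions. Of 16 tested, 2 rose, 2 fell and 12 did not pass, with a median of -0.02. Of all tested genes, 7.86% were called higher and 6.08% lower. The 2 that rose lay in the longest length class, where 32.8% of all genes were called higher. Slc1a3, the glutamate uptake transporter gene of radial glia and astrocytes, fell from 430 ± 66.0 to 330 ± 21 CPM (log2 fold change -0.38 with SE 0.10, adjusted p = 0.027). Glud1, which encodes glutamate dehydrogenase, fell from 254 ± 32.0 to 186 ± 6.37 CPM (log2 fold change -0.45 with SE 0.09, adjusted p = 0.0094), and both falls held with the trend removed (adjusted p = 0.024 and 0.016). The uptake transporter gene Slc1a2 rose from 266 ± 19.6 to 337 ± 1.89 CPM (log2 fold change 0.34 with SE 0.08, adjusted p = 0.015), and the glutamine transporter gene Slc38a1 from 340 ± 16.6 to 422 ± 15.7 CPM (log2 fold change 0.31 with SE 0.08, adjusted p = 0.022). With the trend removed these were 0.12 (adjusted p = 0.31) and -0.01 (adjusted p = 0.93). With a library left out, Glud1 was called in 4 of 6 fits, Slc1a2 in 3, Slc38a1 in 2 and Slc1a3 in 1. None of the 3 RNA editing enzyme genes passed; the smallest p was that of Adarb1, which encodes the enzyme that edits the GluA2 transcript, at 24.7 ± 2.61 and 29.2 ± 1.55 CPM (log2 fold change 0.24 with SE 0.10, adjusted p = 0.12; trend removed -0.01, adjusted p = 0.98).

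Markers of neurons and of other cell types were read beside the receptor genes. Over all tested genes 7.86% were called higher and 6.08% lower (3.83% and 3.88% with the trend removed). Of 13 transcription factor genes of excitatory interneurons, 4 rose, none fell and 9 did not pass, with a median of 0.35. Among them Sim1, the V3 interneuron factor, rose from 8.63 ± 0.539 to 12.1 ± 1.73 CPM (log2 fold change 0.48 with SE 0.13, adjusted p = 0.025), and the dI1 factors Barhl2 and Barhl1 rose with log2 fold changes of 0.36 and 0.40 (adjusted p = 0.028 and 0.031). With a library left out, Sim1 and Barhl2 were called in 3 of 6 fits and Barhl1 in 1. With the trend removed Barhl2 and Barhl1 passed (adjusted p = 0.014 and 0.042) and Sim1 did not (adjusted p = 0.052). The 9 that did not pass as counted were mixed. Evx2 (0.42), Evx1 (0.35) and Sox14 (0.35) had positive log2 fold changes, and Sox14 passed with the trend removed (0.47, adjusted p = 0.029). Lmx1b was at 0.02 and Pou4f1 at 0.04, and only Tlx3 (-0.30) and Prrxl1 (-0.26) had negative log2 fold changes. The summed level of the list overlapped, at 400 to 466 CPM in control and 403 to 495 CPM in NFIAcKO libraries. Of 5 inhibitory transmitter genes, Slc6a5, the neuronal glycine transporter gene, rose from 52.6 ± 1.22 to 63.3 ± 2.35 CPM (log2 fold change 0.27 with SE 0.08, adjusted p = 0.032), a call that held in 1 of 6 fits with a library left out and not with the trend removed (adjusted p = 0.15). None of 5 cholinergic motor neuron markers passed; Mnx1 had the smallest p, at 17.6 ± 3.05 and 22.6 ± 1.62 CPM (log2 fold change 0.35 with SE 0.12, adjusted p = 0.07), and it passed with the trend removed (adjusted p = 0.04). Of 12 pan-neuronal markers 6 rose and none fell, and 5 rose with the trend removed. Their summed level was 11600 to 12800 CPM in control and 14200 to 14700 CPM in NFIAcKO libraries. Of the marker genes of these 4 lists none was at 0 in all 6 libraries, and their part in the receptor results was not tested.

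Markers of glia and of cells outside the cord gave the following counts, beside 7.86% of all tested genes called higher and 6.08% lower. Of 8 radial glia and astrocyte markers none rose and 5 fell (4 with the replicate number as a block, 3 with the trend removed), with summed levels of 2600 to 2900 CPM in control and 2170 to 2320 CPM in NFIAcKO libraries. Of 6 microglia markers 2 fell, and 0 with the trend removed (81.9 to 89.5 against 65.9 to 72.3 CPM), and of 5 oligodendrocyte precursor markers 1 fell (97.5 to 119 against 84.6 to 116 CPM). Of 9 dorsal root ganglion and Schwann cell markers 1 rose and 1 fell, or 1 and 0 with the block and none with the trend removed (158 to 192 against 160 to 167 CPM), of 8 blood and endothelial markers 2 rose and 1 fell, or 1 and 1 with the block and 2 and 0 with the trend removed (1890 to 2110 against 1590 to 2240 CPM), and of 7 tested markers of meninges, cartilage and muscle none passed (719 to 909 against 843 to 1150 CPM). No gene of these lists was at 0 in all 6 libraries, and their part in the receptor results was not tested.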

How the data were processed

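RNA of 6 whole spinal cords went into stranded mRNA libraries, per the labels' protocols. Tools listed without a role in the submitters' processing notes are STAR 2.6.1a, HTSeq and DESeq2, with the build mm10 (GRCm38). Annotation release and strand setting: not given in the sources used here. The authors deposited raw counts per gene symbol, 1 file per library. The 5 summary lines in each file (16.9 to 19.4% of its total) entered neither library sizes nor tests. Libraries of 1 group differed beyond sampling noise in each pair (chi-square per degree of freedom 10.9 to 45.3), and all 6 were counted as separate samples. Such differences cannot show whether the embryos were independent.

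Groups were compared in edgeR 4.0.16 (R 4.3.3) with robust quasi-likelihood F tests, TMM factors and filterByExpr, on 17711 genes, with Benjamini-Hochberg adjusted p under 0.05 as the call. Standard errors (SE) were derived from F and the fold change, and intervals are at 95%. The biological coefficient of variation was 11.5%. The fit was also run on simulated counts that held no length or GC trend, no sex difference and no pairing, so that run does not bear on these. Alternatives were upper quartile and RLE scaling, DESeq2 1.42.0, limma-voom (limma 3.58.1), no filter beyond 1 count, each library left out, Xist as a covariate, the number that file names share as a block, the replicate number as a block, and removal of each library's trend with exonic length and GC content (natural splines with 5 degrees of freedom, fitted where mean log2 CPM was over 1, entered as offsets). The last was also run with the block, added after the data were seen. Lengths and coordinates came from GENCODE M21 on GRCm38, which matched 53642 of 55433 symbols, and gave length and GC content to 98.8% of those tested. Shares within a library were tested by exact permutation (SciPy 1.17.1).

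The replicate numbers come from the titles, which do not tie them to a litter or day. Deviations of same-numbered libraries from their group means correlated at 0.353, 0.397 and 0.193, all over 0.1. The numbers were therefore taken to pair the libraries in the fits with the replicate block. Both replicates 2 were the libraries with Xist, and both replicates 3 had a file-name number that no other library had. Sex and file-name number were thus not separated from a pairing. The main fit and the permutations did not use the pairing.

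The members and gene lists were chosen with earlier results of these data known. Genes named beside the members were, of each list, up to 4 called genes by smallest p, or the smallest p where none was called. Slc17a7, Slc17a8 and Slc32a1 were named for their role beside Slc17a6, after their values were seen. Cell type markers were given as lists. The result of 1 gene that this rule names is not reported here.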

Additional observations from a re-analysis of the deposited data

How the results depend on the processing

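With 3 libraries a group, 1 library decided many calls: with each left out in turn, 0 to 2 of the 9 genes were called higher and 0 to 1 lower, and 282 to 2703 of all genes higher and 139 to 2466 lower. Of the 9, 2 were called higher with RLE scaling, limma-voom, the replicate block and the file-name number as a block; 1 with upper quartile scaling; 4 with every gene of at least 1 count, with Xist as a covariate and with DESeq2; and 0 with the length and GC trend removed, alone or with the replicate block. Over all genes 1392 were called higher and 1076 lower; upper quartile scaling gave 1057 and 1434, the replicate block 1353 and 1119, and removal of the trend 678 and 688 (with the replicate block 712 higher). Added to the fit as counted, the replicate block ended the calls of Grin2a and Olfm3 and no other call of a gene named here; added to the fit with the trend removed, it ended that of Shank2. Gria1 changed sign, from 0.04 to -0.00071 with upper quartile scaling, -0.04 with the trend removed, with or without the replicate block, and between -0.04 and 0.09 with a library left out. Gria2 changed from -0.01 to 0.0003 with the replicate block, 0.002 with the file-name block, 0.00045 in limma-voom and 0.0015 in DESeq2, and lay between -0.13 and 0.08 with a library left out. With the trend removed, Grin1 was -0.05, Slc38a1 -0.01 and Adarb1 -0.01, or -0.05, -0.02 and -0.0019 with the replicate block. The Grin2b share of GluN2 genes differed by 2.68 to 7.95 percentage points with a library left out. The cause was not tested for any of these.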

Other observations

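By the Pearson correlation of log2 CPM over the 6 libraries, among 10302 genes with a mean of at least 10 CPM, the genes whose pattern was most like that of Slc17a6 were Bmper (0.995), which encodes a secreted BMP-binding protein, Tmem50b (0.989) and Ebp (0.987), which encodes a sterol isomerase of cholesterol synthesis. Their mean levels were 11.04 and 9.63, 70.59 and 65.76, and 15.04 and 13.89 CPM in the libraries labelled control and NFIAcKO. The 6 points share library depth and the length trend, so this is a description only.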
